A study of Homo sapiens with 4 samples.

Results

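Translation initiation factors are the proteins that load the small ribosomal subunit with initiator tRNA, bring it to the capped end of an mRNA and set it at the start codon. The set described here holds the protein-coding genes whose NCBI symbol is EIF followed by a digit from 1 to 6. EIF2S1, EIF4EBP1 and the EIF2AK kinases do not belong to the set. Of the 23459 genes in the count tables, 48 matched this rule, and 44 of them passed a filter (CPM, the count scaled to library size, over 1 in 2 or more libraries) and were tested among 12559 genes. The other 4 (EIF3C, EIF3CL, EIF1AY and EIF4E1B) had 0 counts in every library, which allows up to 3 counts per library by counting error alone. EIF3C and EIF3CL are near-identical copies in which few reads could be placed once, so their 0 counts do not show a low level. RefSeq has 50 genes under the same rule, and the remaining 2, EIF4A1 and EIF2S3B, were not analysed here.

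The libraries came from wild-type hTERT RPE-1 cells, a human retinal pigment epithelium line immortalized with telomerase. All cells had been kept for 48 h in medium with 0.1% serum and then received 200 μM merbarone, a catalytic inhibitor of type II topoisomerases. The groups are 2 replicates after 4 h of drug and 2 replicates after 8 h, so every library is treated. Untreated cells were not analysed here, so a longer exposure and a longer stay in low serum cannot be told apart.

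As background, initiation begins when eIF2 carries the initiator tRNA to the small subunit, where eIF1, eIF1A, eIF3 and eIF5 assemble around it. The eIF4F complex joins the cap-binding protein eIF4E, the scaffold eIF4G and the helicase eIF4A, and recruits the loaded subunit to the mRNA. After scanning to the start codon, eIF5 triggers GTP hydrolysis on eIF2, eIF5B joins the large subunit, and eIF2B recharges eIF2 with GTP. Some of these mRNAs, like those of ribosomal proteins, begin with a run of pyrimidines that places their translation under mTORC1.

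Between 4 h and 8 h, 13 of the 44 tested initiation factors rose, 5 fell and 26 did not pass the test. The largest rise was that of EIF1, the factor that guards start codon selection, at 1.52-fold, and 6 of the 12 tested subunits of eIF3 rose with it. The members that fell were EIF4E2, EIF4A3, EIF2B1, EIF5 and EIF4EBP2. A gene was called at a Benjamini-Hochberg adjusted p below 0.05 in the quasi-likelihood test of edgeR over all tested genes. The members called higher made up 29.5%, where 19.9% of all tested genes were called higher, and those called lower made up 11.4%, where 18.8% of all tested genes were. Scaling by library size alone changed the split from 13 higher and 5 lower to 10 and 7, as did removal of the trend with abundance.

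The changes were small. The log2 fold changes (log2FC) of the members ran from −0.41 to 0.97, with a median of 0.12, beside −0.00 for all tested genes. The study's fold threshold, an absolute log2FC above 1, was passed by 0 members in edgeR, DESeq2 and Limma-Voom, whatever their p. Of all tested genes, 1.45% were called and passed it upward, and 3.88% were called and passed it downward. Both 8 h libraries lay above both 4 h libraries for 24 members (54.5%) and below for 9 (20.5%), beside 34.8% above and 34.9% below among all tested genes. The members are abundant mRNAs, and 20 of the 44 lay in the most abundant quintile of the tested genes, in which 39.1% of the 2512 genes were called higher and the median log2FC was 0.12. In that quintile, 7 of the 20 members (35.0%) were called higher and 2 lower. Both 8 h libraries lay above both 4 h libraries for 11 of these 20 and below for 4. Among all genes of that quintile, 54.8% lay above in this way and 24.1% below. In the next quintile, 3 of 12 members were called higher, beside 27.4% of all its genes. There, 8 of the 12 lay above and 3 below, beside 43.8% and 30.9% of all its genes. In both quintiles the share of members called higher was not above that of all genes of like abundance.

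**Figure D1:**
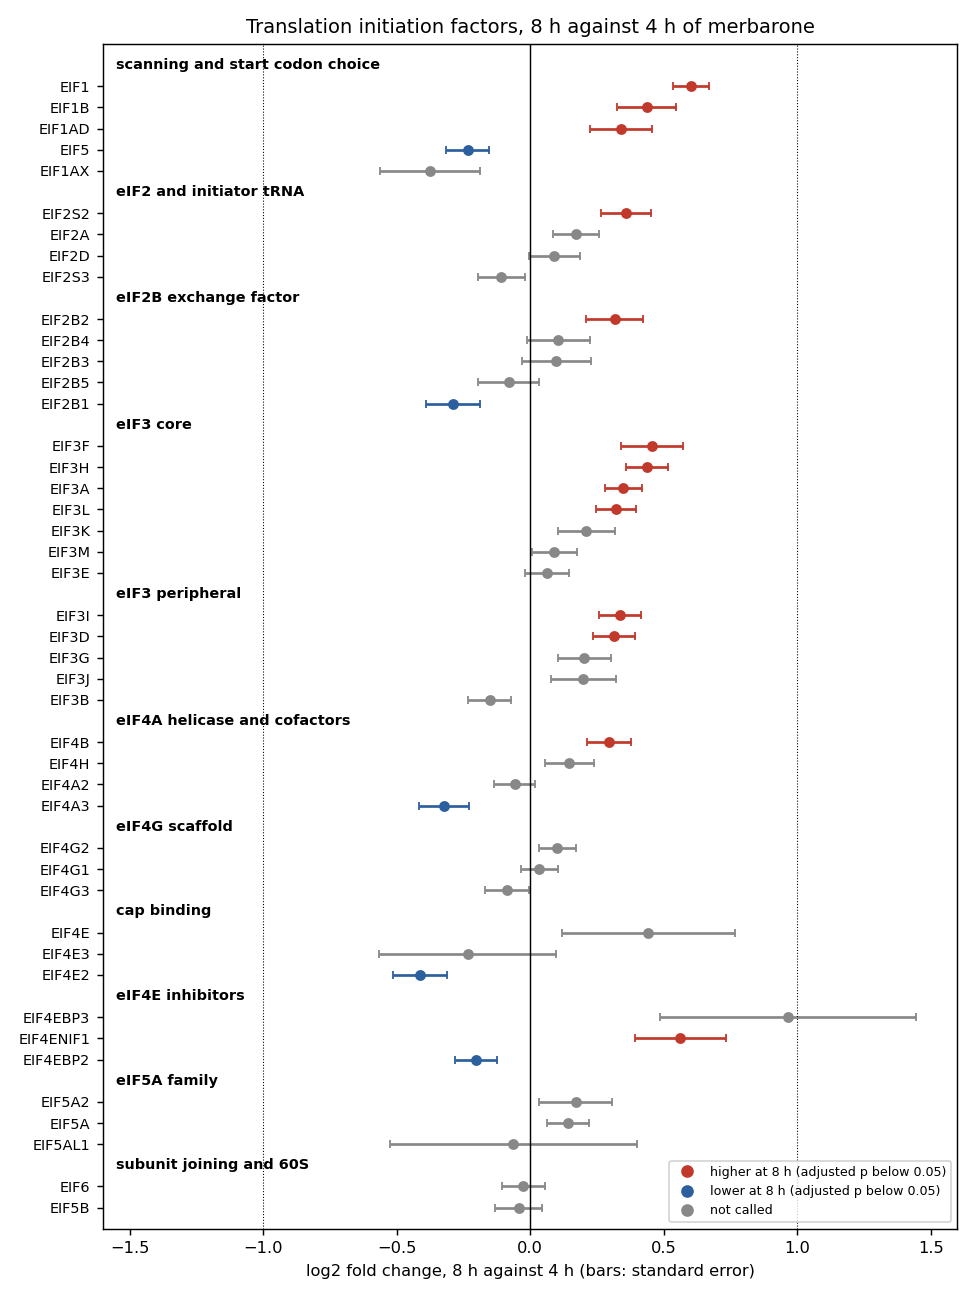
Log2 fold change at 8 h against 4 h of the 44 tested initiation factors, grouped by role, with bars of 1 standard error. Red points were called higher (13), blue points lower (5) and grey points were not called, and no point reaches the dotted lines at a log2FC of 1 and −1.

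The libraries held between 8064450 and 10324697 counts, of which between 0.716% and 0.767% fell on the members. The replicates were not copies, since their counts differed by a chi-square of 2.67 (4 h) and 3.84 (8 h) per degree of freedom, where sampling alone gives about 1. Of 11 markers of retinal pigment epithelium, 4 (MITF, OTX2, PMEL and SERPINF1) passed the CPM filter, and RPE65, RLBP1, BEST1, LRAT, TYR, TYRP1 and TTR had at most 7 counts in a library. The epithelial keratins KRT8 and KRT18 had 1927 to 3966 counts, and KRT18 fell (log2FC −0.51). Of 7 markers of photoreceptors, endothelium and leukocytes, 6 had at most 8 counts, while CD68 had 575 to 654 and rose (log2FC 0.39). The part of these genes in the results below was not tested.

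What could be counted of each mRNA depended on the mapping, which took reads without gaps and kept those with 1 position in the genome. To describe this, every window of 75 bases, the read length, was taken from the Ensembl canonical transcript of each member. Those inside an exon were searched in GRCh37 with up to 2 mismatches. Between 4.1% and 95.7% of the windows of a tested member lay inside an exon and had a single place, with a median of 57.0%. Windows across exon junctions cannot be placed whole in the gene itself without gaps, and they were not searched elsewhere. Such windows made up 25.4% at the median and 72.1% in EIF3K, a short mRNA of 8 exons. Windows with another place in the genome made up over 20% in 9 tested members. They were 79.0% in EIF4H, 60.4% in EIF4B, 55.9% in EIF1AX, 47.8% in EIF4E and 45.5% in EIF5A. EIF3C and EIF3CL, near-identical copies of the gene of a core subunit of eIF3, had 1.7% and 1.8% of windows with a single place and no count. These shares were taken from the canonical transcript alone and not from each library. They bear on the levels and on the number of reads behind a value. Their part in the changes between 4 h and 8 h was not tested.

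**Figure D2:**
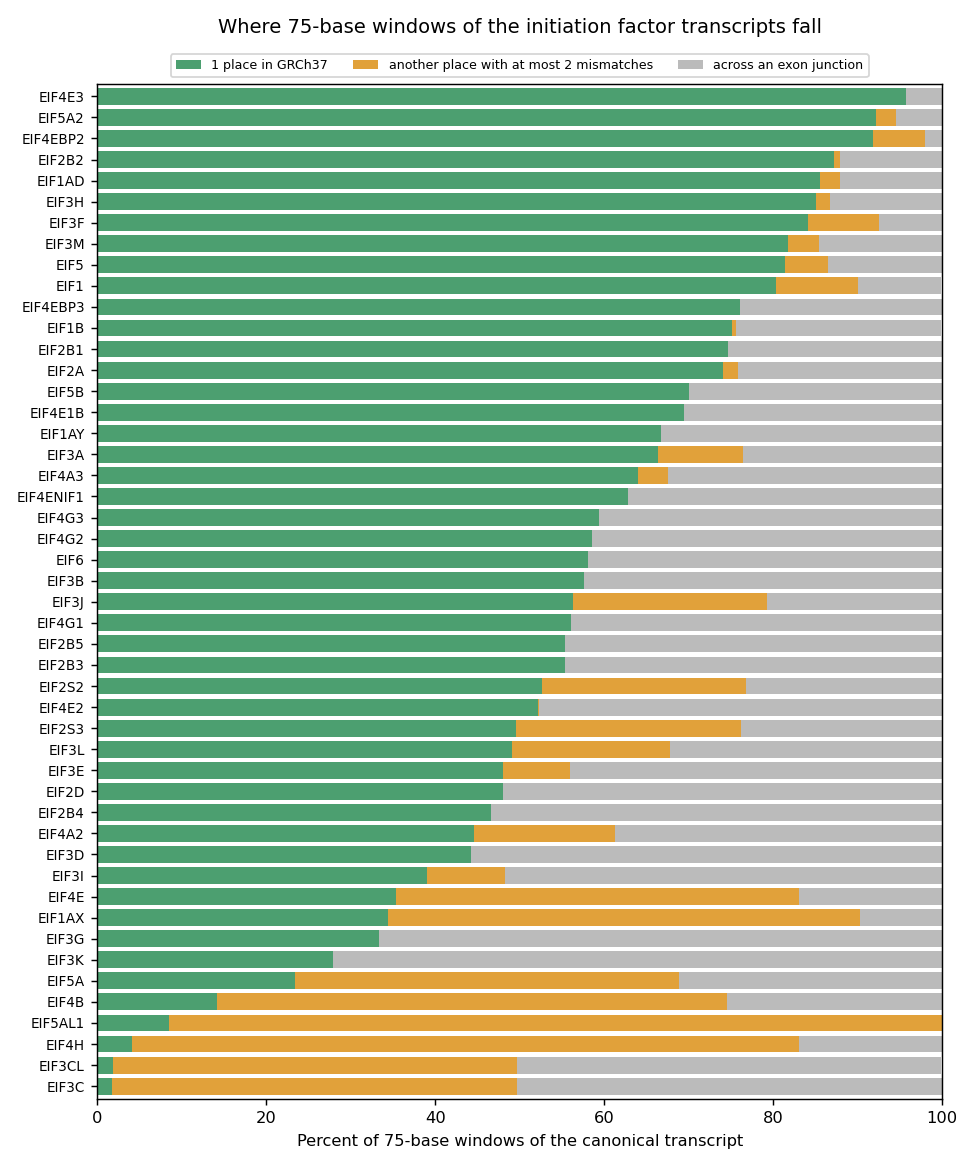
Share of the 75-base windows of each member's canonical transcript that have 1 place in GRCh37 (green), another place with at most 2 mismatches (orange), or cross an exon junction (grey), for all 48 members. The green share falls from 95.7% in EIF4E3 to 1.7% in EIF3C.

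The factors of scanning and start codon choice held the strongest rise and one of the falls. EIF1 (chr17:39845137-39848920, plus strand, hg19) keeps the scanning ribosome from stopping at poor start codons. Its TMM-normalized counts, scaled to the mean effective library size, were 6653 and 6430 in the 4 h replicates (6542 ± 158, SD, n = 2) and 9766 and 10090.4 in the 8 h replicates (9928 ± 229, SD, n = 2). The groups lay far apart relative to the spread of each pair, and the log2FC was 0.60 (standard error 0.07, edgeR adjusted p = 1.29e-06). This rise was called in all 13 alternatives, with log2FC from 0.43 to 0.65. EIF1B (chr3:40351198-40353915, plus strand), a close relative of EIF1, was at 480.1 and 481.4 at 4 h and at 723.1 and 574.0 at 8 h. The 8 h replicates stood above both 4 h replicates but differed from each other, and the difference (log2FC 0.44, standard error 0.11, edgeR adjusted p = 0.00367) fell to 0.26 without 8 h replicate 1 (adjusted p = 0.0801). Exons of another gene model on the same strand cover 13.1% of the EIF1B transcript.

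EIF5, whose protein triggers GTP hydrolysis by eIF2 once a start codon is found, moved the other way from EIF1. Its normalized counts were 5484 and 4949 in the 4 h pair and 4734 and 4130.1 in the 8 h pair, so the groups did not overlap, though the nearest libraries were close. The log2FC was −0.23 (standard error 0.08, edgeR adjusted p = 0.0258). The call was lost without 4 h replicate 1 (adjusted p = 0.278), without 8 h replicate 2 (adjusted p = 0.154) and in DESeq2 (adjusted p = 0.0614). EIF1AD (chr11:65764016-65769647, minus strand), a gene named for its eIF1A domain, was at 301.5 and 279.2 at 4 h and 358.0 and 379.0 at 8 h (log2FC 0.34, standard error 0.12, edgeR adjusted p = 0.0253). It was not called without 4 h replicate 1 (adjusted p = 0.074), without 4 h replicate 2 (adjusted p = 0.182) or without 8 h replicate 2 (adjusted p = 0.0795), nor in DESeq2 (adjusted p = 0.111) or with library size alone (adjusted p = 0.115). EIF1AX, the X-linked gene of eIF1A, had 166.9 and 121.5 at 4 h against 107.4 and 115.6 at 8 h. Its log2FC of −0.37 had a standard error of 0.19 and was not called (edgeR adjusted p = 0.122), though it was called with library size alone (log2FC −0.48, adjusted p = 0.0458), and 34.4% of its windows had a single place.

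Among the tested genes of eIF2 and of initiator tRNA delivery, 1 of 4 was called. EIF2S2 (chr20:32676115-32700049, minus strand), which encodes the beta subunit of eIF2, rose from 724.2 and 678.1 to 960.3 and 836.2 normalized counts (log2FC 0.36, standard error 0.09, edgeR adjusted p = 0.00487). All its 8 h values exceeded its 4 h values, and without 4 h replicate 2 the adjusted p was 0.0798. EIF2S3, the gene of the gamma subunit that binds GTP and the tRNA, had overlapping groups, with 1155 and 1009.9 at 4 h and 998.2 and 1010.2 at 8 h (log2FC −0.11, standard error 0.09, adjusted p = 0.35). The subunits of 1 complex thus had different values, a difference that was not tested. EIF2A and EIF2D, which encode separate proteins that can deliver tRNA without eIF2, had log2FC of 0.17 and 0.09 and were not called. With the trend in GC content removed, EIF2A was called (log2FC 0.24, adjusted p = 0.014).

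The 5 subunit genes of eIF2B, the exchange factor that recharges eIF2 and is blocked when eIF2 is phosphorylated, did not move together. EIF2B1, the alpha subunit, fell from 586.9 and 555.7 to 491.9 and 441.1 normalized counts (log2FC −0.29, standard error 0.10, edgeR adjusted p = 0.0304). EIF2B2, the beta subunit, rose from 451.4 and 486.8 to 543.1 and 627.5 (log2FC 0.32, standard error 0.10, edgeR adjusted p = 0.0222). The groups of each gene did not overlap, in opposite directions. The other subunit genes, EIF2B3 (gamma), EIF2B4 (delta) and EIF2B5 (epsilon), had log2FC of 0.10, 0.11 and −0.08, none of them called. Both calls are fragile. Without 4 h replicate 1, 4 h replicate 2 or 8 h replicate 2, the adjusted p was 0.181, 0.0862 and 0.141 for EIF2B1 and 0.199, 0.0618 and 0.157 for EIF2B2, and DESeq2 gave 0.123 and 0.0868. With library size alone, EIF2B2 had an adjusted p of 0.117. Exons of genes on the opposite strand cover 22.4% of the EIF2B1 transcript and 29.3% of that of EIF2B2, and whether counting used the strand is not stated in the sources used here.

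The eIF3 complex, the largest initiation factor and a platform between the small subunit and eIF4G, had the most rises. Of its 12 tested subunits, 6 were called higher and 0 lower in edgeR, with 0 lower also at an unadjusted p below 0.05 and in DESeq2 and Limma-Voom. These 6 of 12 stand beside 19.9% of all tested genes called higher and 39.1% of the most abundant quintile, whose median log2 CPM of 7.26 was close to that of the eIF3 subunits (7.38). The median log2FC was 0.26, and it was 0.10 for the other 32 members, of which 7 were higher and 5 lower. Of these 12 subunits, 9 had both 8 h libraries above both 4 h libraries and 1, EIF3B, had both below. Among all genes of the most abundant quintile, 54.8% had both above and 24.1% both below. With the abundance trend removed, 4 subunits were called higher and EIF3B lower.

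In the core of eIF3, built from PCI and MPN domain subunits, 4 of 7 tested genes rose and the other 3 had a log2FC above 0. EIF3A (chr10:120793182-120840329, minus strand), the scaffold of the core, had 4707 and 4864 normalized counts in the 4 h pair and 6115 and 6063 in the 8 h pair. The replicates of each time were nearly equal, and the log2FC of 0.35 (standard error 0.07, edgeR adjusted p = 0.000575) was called in all 13 alternatives. EIF3H (chr8:117654369-117779164, minus strand), an MPN domain subunit, was at 1704 and 1743 and then at 2453 and 2219, a rise (log2FC 0.44, standard error 0.08, edgeR adjusted p = 0.000224), also called in all 13. EIF3F (chr11:7991798-8023409, plus strand), its MPN partner, was at 348.2 and 321.8 and then at 421.4 and 502.0. The 8 h replicates of EIF3F were further apart than those of EIF3A, and the log2FC was 0.46 (standard error 0.12, edgeR adjusted p = 0.00386, and 0.0602 without 4 h replicate 2). EIF3L (chr22:38244875-38285414, plus strand) rose from 2279 and 2266 to 2753 and 2935 (log2FC 0.32, standard error 0.08, edgeR adjusted p = 0.00202), and its adjusted p was 0.0541 with the abundance trend removed. A gene model on the same strand shares 58.5% of the EIF3L exon bases.

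The core subunits that were not called were EIF3K, EIF3M and EIF3E, with log2FC of 0.21, 0.09 and 0.06. EIF3K had 536.6 and 554.8 normalized counts in the 4 h pair and 696.5 and 561.6 in the 8 h pair, so that 8 h replicate 2 lay close to the 4 h pair, and it was called without 8 h replicate 2 (log2FC 0.35, adjusted p = 0.00697). EIF3E, whose gene gives the subunit known as INT6, had overlapping groups, at 1707 and 1676 against 1883 and 1651.

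Outside the core, EIF3I and EIF3D rose. EIF3I (chr1:32686678-32710998, plus strand), a WD-repeat subunit bound to eIF3b, went from 1678 and 1643 to 2188 and 1999 normalized counts (log2FC 0.34, standard error 0.08, edgeR adjusted p = 0.00227), in all 13 alternatives. EIF3D, a subunit able to bind the mRNA cap itself, went from 2277 and 2314 to 3003 and 2697 (log2FC 0.31, standard error 0.08, edgeR adjusted p = 0.00336). Its adjusted p was 0.0599 without 4 h replicate 1 and 0.0811 with the abundance trend removed. EIF3G, an RNA-binding subunit, and EIF3J, a loosely attached one, had log2FC of 0.20 each and were not called. EIF3G was called without 8 h replicate 1 (log2FC 0.30, adjusted p = 0.0173), and EIF3J without 4 h replicate 1 (log2FC 0.41, adjusted p = 0.0372) and with the GC trend removed (log2FC 0.27, adjusted p = 0.0264). EIF3B, the subunit to which EIF3I and EIF3G proteins bind, stood apart with 1570 and 1548 at 4 h and 1364 and 1444 at 8 h (log2FC −0.15, standard error 0.08, adjusted p = 0.138). It passed as lower with library size alone (adjusted p = 0.0139) and with the abundance trend removed (adjusted p = 0.0131).

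**Figure D3:**
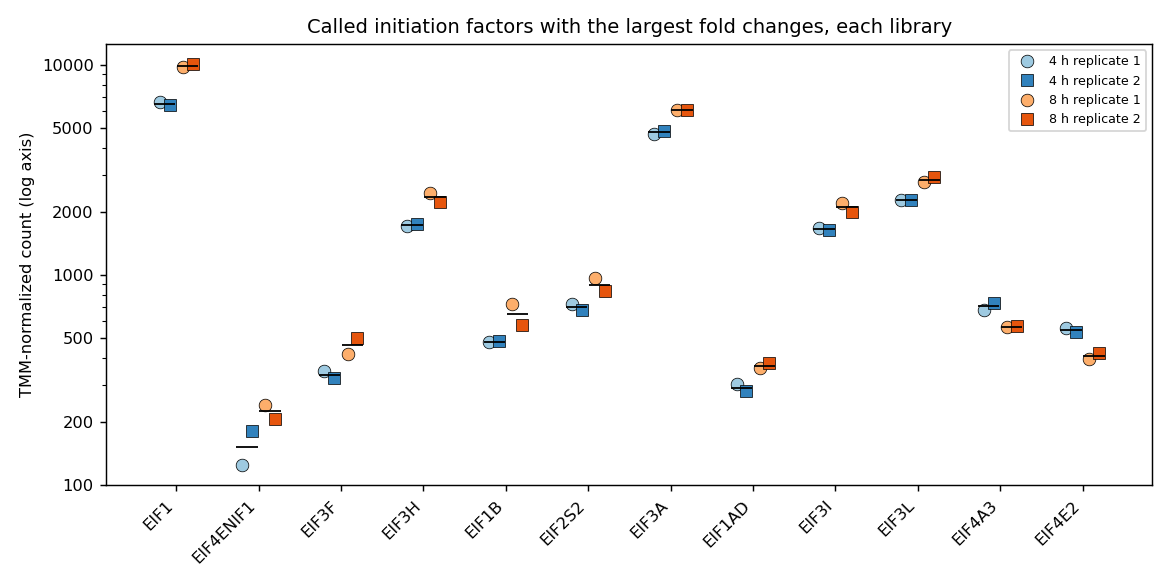
TMM-normalized counts (log axis) in each library of the 12 called initiation factors with the largest fold changes and a mean of at least 100; black lines are the means of the 2 replicates. In all 12 the 8 h libraries lie on one side of the 4 h libraries, above in 10 genes and below in EIF4A3 and EIF4E2.

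The genes of the eIF4A helicase and its cofactors were divided. EIF4B, which stimulates the helicase, rose from 961.1 and 990.9 to 1203 and 1192 normalized counts (log2FC 0.29, standard error 0.08, edgeR adjusted p = 0.00768). Its replicates were close, but only 14.1% of its windows had a single place, and the adjusted p was 0.0979 without 4 h replicate 1, 0.0763 with library size alone and 0.0765 with the abundance trend removed. EIF4H, a shorter relative of EIF4B, had a log2FC of 0.15 (standard error 0.09, adjusted p = 0.222). EIF4A2, one of the eIF4A helicases of eIF4F, had overlapping groups, with 3997 and 3984 at 4 h and 4103 and 3561 at 8 h (log2FC −0.06, standard error 0.08, adjusted p = 0.588). With the abundance trend removed, EIF4A2 was called lower (log2FC −0.21, adjusted p = 0.0439). EIF4A3 (chr17:78108168-78120950, minus strand), the helicase at the heart of the exon junction complex, acts in splicing-coupled mRNA surveillance and not in initiation. It fell from 682.0 and 733.4 to 561.5 and 570.3 (log2FC −0.32, standard error 0.09, edgeR adjusted p = 0.0105), with an adjusted p of 0.135 without 4 h replicate 2 and 0.0524 in DESeq2.

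Of the 3 scaffold genes, none was called, also at an unadjusted p below 0.05 or in DESeq2 and Limma-Voom. EIF4G1, the main scaffold of eIF4F, had 4526, 4556, 4652 and 4648 normalized counts in the 4 libraries (log2FC 0.03, standard error 0.07). EIF4G2, also called DAP5, lacks the eIF4E-binding part and had the highest normalized counts of the members, not scaled to length, with 10799 and 10094 at 4 h and 11474 and 10955 at 8 h (log2FC 0.10, standard error 0.07). With the GC trend removed, EIF4G2 was called higher (log2FC 0.16, adjusted p = 0.0301). EIF4G3 had a log2FC of −0.09 (standard error 0.08).

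Of the cap-binding proteins, 1 of 3 was called. EIF4E2 (chr2:233415369-233448354, plus strand) encodes 4EHP, which binds the cap without eIF4G and is known as a repressor of translation. It had 556.4 and 536.7 normalized counts at 4 h and 396.8 and 424.9 at 8 h, without overlap, and its fall (log2FC −0.41, standard error 0.10, edgeR adjusted p = 0.00329) was called in all 13 alternatives. EIF4E itself rested on few reads, with 54 and 23 counts at 4 h and 44 and 40 at 8 h. Its 4 h replicates differed more than the times did, and the log2FC of 0.44 had a standard error of 0.32. Without 4 h replicate 1 this became 1.17 (adjusted p = 0.0385), the only member called past the fold threshold in any of the 13 alternatives. EIF4E3 had 18 to 33 counts per library and a log2FC of −0.23 (standard error 0.33).

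A pair of proteins that bind eIF4E and keep it from eIF4G changed in opposite directions. EIF4ENIF1 (chr22:31832963-31892094, minus strand) encodes 4E-T, the transporter that also holds eIF4E in mRNA storage and decay. It rose from 123.8 and 179.5 to 240.3 and 206.3 normalized counts (log2FC 0.56, standard error 0.17, edgeR adjusted p = 0.0135). The 4 h replicates were unequal, and the adjusted p was 0.262 without 4 h replicate 1, 0.0525 without 8 h replicate 1 and 0.0559 in DESeq2. Exons of genes on the opposite strand cover 14.5% of this transcript. EIF4EBP2, an eIF4E-binding protein released by mTORC1 phosphorylation, fell from 1947 and 1861 to 1712 and 1597 (log2FC −0.20, standard error 0.08, edgeR adjusted p = 0.0488). This value lay next to the threshold, with adjusted p from 0.00378 to 0.128 over the 9 alternatives on all libraries, 5 of which called it, and it was 0.254, 0.127 and 0.169 without 4 h replicate 1, 4 h replicate 2 or 8 h replicate 2. EIF4EBP3 had 9 and 8 counts at 4 h and 17 and 10 at 8 h (log2FC 0.97, standard error 0.48). It was not called, and 73.2% of its exon bases are shared with a gene model on the same strand.

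The genes of the last steps were not called in any of the 3 tests, and 0 of the 5 passed at an unadjusted p below 0.05. EIF5A, the hypusine-containing factor that helps ribosomes through difficult sequences, had 1341 and 1421 normalized counts at 4 h and 1529 and 1516 at 8 h (log2FC 0.14, standard error 0.08). EIF5A2 had a log2FC of 0.17 (standard error 0.14). EIF5AL1, a copy in 1 exon, had 9 to 14 counts, and 91.5% of its windows had another place, so its counts are uncertain. EIF5B, the GTPase that joins the subunits, and EIF6, which keeps the large subunit from joining too early, had log2FC of −0.04 and −0.02, with standard errors of 0.09 and 0.08.

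Levels of paralogs were compared as CPM per kb of canonical transcript. In the 4 libraries EIF4G2 lay between 278 and 316, EIF4G1 between 87.4 and 89.8 and EIF4G3 between 18.4 and 20.3, so that the order of the scaffolds was the same in each library. EIF4A2 lay between 197 and 227 and EIF4A3 between 23.3 and 30.4. EIF1 went from 297 and 287 to 436 and 450 and EIF1B from 51.0 and 51.1 to 76.6 and 60.9, and the ratio of EIF1B to EIF1 stayed between 0.135 and 0.177. EIF5A was at 111 to 126 and EIF5A2 at 4.26 to 5.53. EIF4E2 was at 43.0 to 60.2, EIF4E at 0.982 to 2.22 and EIF4E3 at 0.255 to 0.33. With the length limited to windows with a single place, EIF4E was at 2.87 to 6.50 and EIF4E2 at 89.3 to 125. This scale uses the canonical transcript only, and the part of mapping and annotation in the low level of EIF4E was not tested.

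**Figure D4:**
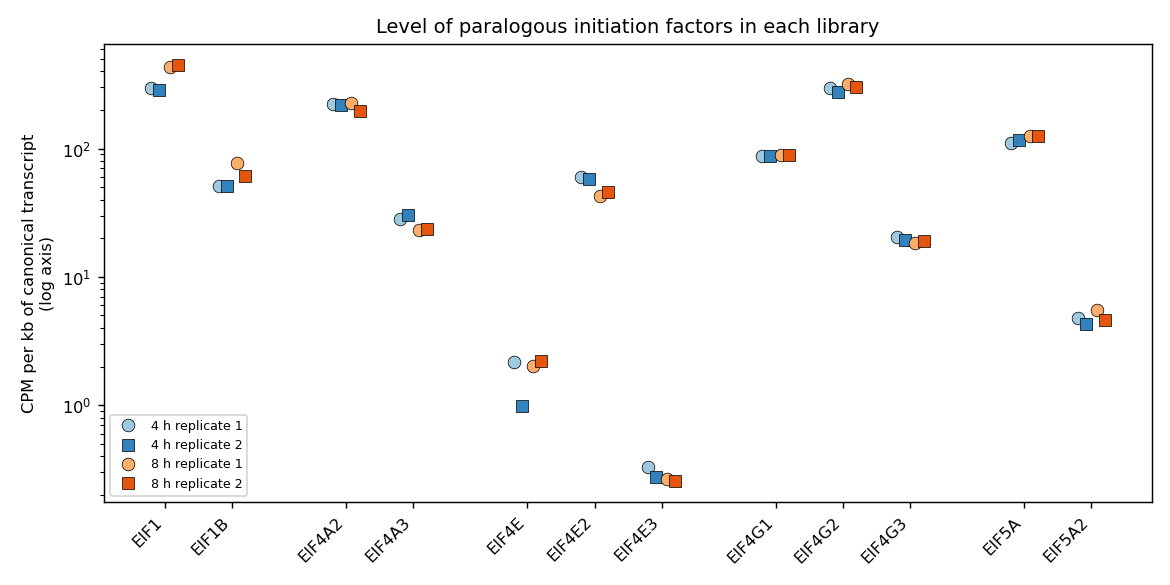
Level of paralogous initiation factors in each library, as CPM (with TMM factors) per kb of the Ensembl canonical transcript on a log axis. EIF4G2 lies above EIF4G1 and EIF4G3, EIF4A2 above EIF4A3, and EIF4E2 above EIF4E and EIF4E3 in all 4 libraries.

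The 5′ ends of the members were read from the RefSeq promoter table of GRCh38.p14, which gives 250 bases before and 50 from each annotated start and held 38 of the 44 tested members. EIF2S2, EIF3A, EIF3E, EIF3G, EIF3H and EIF3L had no entry, and of these EIF2S2, EIF3A, EIF3H and EIF3L were called higher. A TOP-like start, taken as a C at the start followed by at least 4 C or T bases on the sense strand, was found in 9 of the 38 (23.7%), beside 7.55% of 10183 tested genes and 5.14% of 27305 genes of the table. The members were EIF2A, EIF2D, EIF2S3, EIF3D, EIF3F, EIF3K, EIF3M, EIF4A2 and EIF4B. The windows below run from 10 bases before the start to 20 from it on and are shown for the eIF3 and eIF4 genes only. Capitals mark the pyrimidine run that defines this class, which EIF2A, EIF2D and EIF2S3 also carry.

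EIF3D (chr22:36529147-36529176, minus strand): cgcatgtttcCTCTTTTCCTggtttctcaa
EIF3F (chr11:7987327-7987356, plus strand): cttccgcctcCTTCTTTCTCgacaagatgg
EIF4B (chr12:53006446-53006475, plus strand): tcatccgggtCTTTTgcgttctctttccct
EIF3K (chr19:38619178-38619207, plus strand): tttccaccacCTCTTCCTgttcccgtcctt
EIF3M (chr11:32583821-32583850, plus strand): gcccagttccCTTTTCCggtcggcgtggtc
EIF4A2 (chr3:186783567-186783596, plus strand): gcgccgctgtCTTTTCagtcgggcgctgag

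Of the 9 members with such a start, EIF3D, EIF3F and EIF4B were called higher and 0 lower (0 also at an unadjusted p below 0.05 and in DESeq2 and Limma-Voom), with a median log2FC of 0.17. Over the 769 tested genes with a TOP-like start, 25.9% were called higher and 12.9% lower, with a median of 0.10. Among all 38 members with an entry, 23.7% were called higher and 13.2% lower, with a median of 0.10. EIF1, the strongest riser, has no run of this kind at its annotated start. The letters CACGTG, an E-box bound by MYC and related factors, occurred in 11 of the 38 members (28.9%) and in 12.6% of the tested genes, and 3 of these 11 were called higher and 1 lower, beside 23.4% higher and 17.3% lower among all tested genes with these letters. TGATGNAA, the core of a site for ATF4 dimers searched on both strands, occurred in 1 member, EIF4E3, and in 2.65% of the tested genes. A match of letters says nothing of binding.

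Other genes of translation were described with the same fit. Of 23 tested partners and regulators of initiation, 9 rose (39.1%) and 2 fell (8.70%), with a median log2FC of 0.07. Over all tested genes these shares were 19.9% and 18.8%, and in the most abundant quintile 39.1% and 14.6%. The fallen genes numbered 1 without either 4 h replicate. MKNK2, a kinase that phosphorylates eIF4E, had 1833 ± 41.7 normalized counts at 4 h and 3684 ± 297 at 8 h (SD, n = 2) and rose (log2FC 1.01, edgeR adjusted p = 1.35e-08). GIGYF2, the partner of 4EHP in translational repression, rose by a log2FC of 0.63, and PAIP2, an inhibitor of the poly(A)-binding protein, by 0.51. Windows with a single place were not counted for this list. How reads divide among its PABPC genes, which rose, was not tested. BZW1, an eIF5 mimic, fell by a log2FC of −0.51 (adjusted p = 0.00418, and 0.0718 without 4 h replicate 2). EIF4E2 and GIGYF2, whose proteins act as a pair, therefore moved in opposite directions.

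Of 15 tested elongation and termination factors, 4 rose (26.7%) and 1 fell, a share of rises near the 27.4% of all genes in the next most abundant quintile. EEF2, the translocase, had 39341 ± 2043 normalized counts at 4 h and 58911 ± 5649 at 8 h (SD, n = 2) and rose (log2FC 0.58, edgeR adjusted p = 2.87e-06), EEF1G by a log2FC of 0.62 and PELO, a ribosome rescue factor, by 0.60. EEF2K, the kinase that inhibits eEF2, had 142 ± 4.21 and then 77.2 ± 10.8 (SD, n = 2) and fell (log2FC −0.87, edgeR adjusted p = 0.00113). Of 76 tested cytosolic ribosomal protein genes, 36 rose (47.4%) and 4 fell (5.26%), beside 39.1% and 14.6% in the most abundant quintile. The median log2 CPM was 7.26 in both, but some genes of the list lay far lower. The fallen RPS25, RPL17, RPL41 and RPL6 were at abundance percentiles of 81.8, 42.6, 31.6 and 25.5. RPL7, not called, had 8 to 15 counts. Windows with a single place were not counted for these genes. The median log2FC of the list was 0.24, beside 0.26 for the eIF3 subunits and 0.12 for all members. Without 4 h replicate 1, 23 of them were called higher, and 24 with the abundance trend removed. The number called lower was 1 in DESeq2 and without 4 h replicate 2, 8 without 8 h replicate 1 and 2 without 8 h replicate 2.

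Of 14 tested mTORC1 genes, TSC1 and SESN1, which restrain mTORC1, rose (log2FC 0.42 and 0.38), a share of 14.3% beside 19.9% of all tested genes. In edgeR 0 fell, with 0 also at an unadjusted p below 0.05 and in DESeq2 and Limma-Voom, and 1 with the abundance trend removed. Both lost their call without 4 h replicate 2 (adjusted p = 0.0693 and 0.101), while 4 of the list were higher without 8 h replicate 1. The factors of mitochondrial translation, which serve a separate set of ribosomes, had a median of −0.09, with 0 of 10 higher in each test, also at an unadjusted p below 0.05, and 3 lower, which became 1 in DESeq2 and without 4 h replicate 1. The 3 lower genes are 30.0% of the list, beside 18.8% lower and 19.9% higher among all tested genes. In the middle abundance quintile, with a median log2 CPM of 4.91 beside 4.81 for this list, 21.9% were lower and 17.4% higher. The 3 lower genes were MTRF1 (log2FC −0.98, edgeR adjusted p = 0.00286), TSFM (−0.43, adjusted p = 0.0111) and GFM2 (−0.33, adjusted p = 0.0465). TSFM was not called in DESeq2 (adjusted p = 0.065) or without 4 h replicate 1 (adjusted p = 0.115), and GFM2 was not called in 8 of the 13 alternatives (adjusted p from 0.0505 in Limma-Voom to 0.349 without 4 h replicate 2). The difference between these lists and the initiation factors was not tested.

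**Figure D5:**
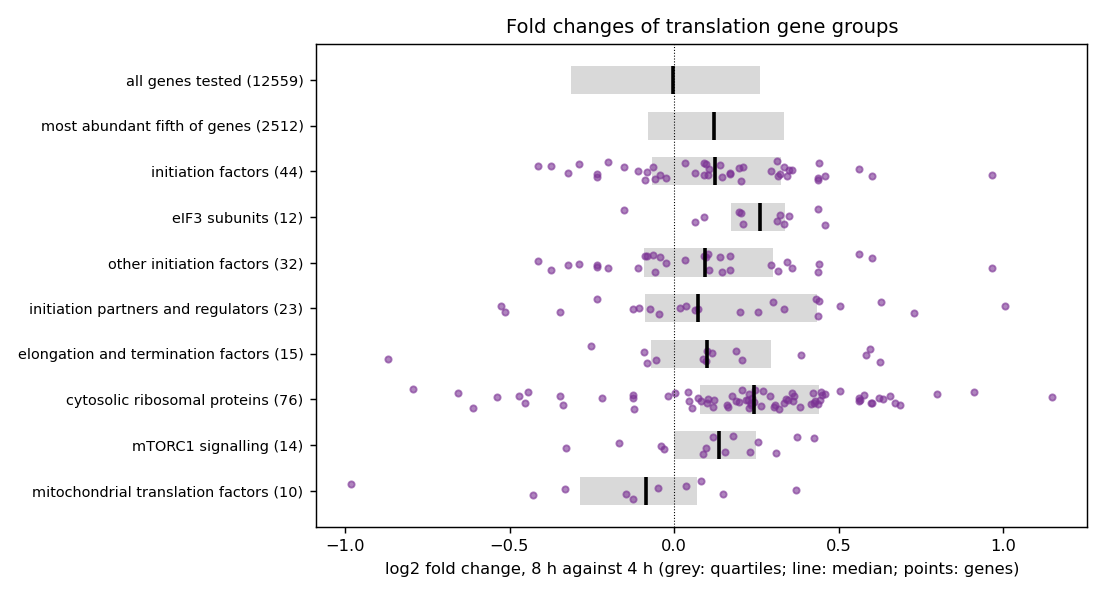
Log2 fold change at 8 h against 4 h of genes of translation; grey bars span the quartiles, black lines are medians, points are genes, and the number of tested genes is in brackets. The medians of the eIF3 subunits (0.26) and ribosomal protein genes (0.24) lie above that of the most abundant quintile of genes (0.12), and that of the mitochondrial factors lies at −0.09.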

How the data were processed

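The deposited values are raw counts for each gene (NCBI Gene identifiers), 1 table per library. Before counting, the authors used FASTQC for read quality and Bowtie 1.2.0 for alignment to hg19, with only reads that align once retained. The counting tool, the annotation and the use of strand are not given in the sources used here. Libraries were made with a stranded mRNA kit and read as single reads of 75 bases. The study names the replicates as biological.

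A gene was kept at a CPM over 1 in 2 or more of the 4 libraries (12559 of 23459); kept genes were scaled by TMM and tested for 8 h against 4 h with edgeR 4.0.16 (quasi-likelihood, time as the only term, two-sided, Benjamini-Hochberg over all tested genes) in R 4.3.3. Standard errors were obtained as the absolute log2FC over the root of F. Alternatives were Limma-Voom (limma 3.58.1), DESeq2 1.42.0, other scalings and filters, a replicate block, trend corrections and leaving out each library. The fits were tested on simulated data. The members and lists were chosen with earlier results of these data known. Full values are given for the 12 called members with the largest absolute log2FC and a mean normalized count of at least 100, for other called members and for paralogs, and each list is described by up to 4 called genes. Symbols came from RefSeq (23308 of 23459 genes) and GRCh37 positions and transcripts from GENCODE (48 of 48 members). Intervals of counts per gene and the limit of 3 counts cover counting error only. A permutation test of 2 against 2 libraries cannot reach 0.05.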

Additional observations from a re-analysis of the deposited data

How the results depend on the processing

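None of the 18 called members changed sign in the 13 alternatives, and EIF1, EIF3A, EIF3H, EIF3I and EIF4E2 (5 of 18) were called in each. The number of members called higher stayed within 1.5 times of 13, from 9 to 16. The number called lower was 5, but 1 in DESeq2, and 2 to 5 with 1 library left out. In these settings the lone library of a time is assumed to vary like the pair, and the members past the fold threshold numbered 0 to 1. The median log2FC of the members was 0.124, with 0.074 to 0.158 when 1 library was left out, and relative to all tested genes 0.126, with 0.077 to 0.161. Library size alone moved the median of all genes to −0.11 and that of the members to 0.018, which leaves 0.126 relative to all genes. With library size alone, and with the abundance trend removed, the number of members called lower was 7. The count of eIF3 subunits called lower was 0, and 1 (EIF3B) with library size alone and with the abundance trend removed.

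With the replicate block, 13 members were higher and 5 lower, and of all tested genes 2829 and 2664. Same-numbered libraries showed a correlation of 0.05 in their deviations from the group means, and of 0.12 over genes whose mean normalized count reached 100. There are 2 pairs, and no source used here ties equal numbers to a shared batch, so the numbers are not taken to pair them. The count of all tested genes higher at 8 h was 2500, and 1605 and 1619 without 4 h replicate 1 or 2. The count of all tested genes lower at 8 h was 2367, and 1509 and 1522 without these libraries and 1490 in DESeq2. EIF4EBP3 and EIF5AL1 had no value with a CPM above 2. Depth limits EIF4E, EIF4E3, EIF4EBP3 and EIF5AL1 most.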
